A study of Mus musculus with 6 samples.

Results

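The collagen genes of mouse neural stem cells were examined in cells that had lost Phf2, a histone demethylase gene of the Jumonji family, and in control cells. They were taken as the rows of the count table whose symbol is Col, a number, a lower-case a and a second number, which gave 44 genes of 24503. Of these, 32 had enough counts to be tested and 12 did not. Knockout cells (KO, n = 3 libraries) carried the Nestin-Cre transgene and floxed Phf2 alleles on both chromosomes. Control cells (WT, n = 3 libraries) carried the same floxed alleles, with no Cre named in their labels, so the transgene and the loss of Phf2 cannot be told apart. All cells were primary cultures from the cortex of E13.5 embryos, enriched as neurospheres and expanded on 5 µg/mL laminin with 10 ng/mL FGF and 20 ng/mL EGF. Cre was driven by Nestin sequences, which are active in neural progenitors. The labels do not say whether the libraries of a genotype came from separate embryos or cultures, and the spread that p-values rest on may therefore be technical.

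Collagens are secreted as triple helices of 3 alpha chains, and the genes encode single chains. The usual molecule of type I collagen, for example, combines the products of Col1a1 and Col1a2. Fibrillar collagens (types I, II, III, V, XI, XXIV and XXVII) form cross-banded fibrils. Type IV collagen forms the sheet-like network of basement membranes, and types XV and XVIII, the multiplexins, are proteoglycans attached to it. Collagens with interrupted helices (FACIT) sit on fibril surfaces, and type VI forms beaded microfibrils. In the developing cortex, the basement membrane at the pial surface anchors the end-feet of radial glia, the neural stem cells of the embryo, and fibrillar collagens are mostly made by meningeal and vascular cells.

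Total counts ranged from 33413444 to 46890314 per library. Phf2 (chromosome 13, 48801750 to 48871119, minus strand, GRCm38) had 56.3, 48.1 and 48.8 CPM (counts scaled to the library's total after TMM correction) in KO 1, 2 and 3 and 109, 90.4 and 77.8 CPM in WT 1, 2 and 3, so the targeted gene was lower in every KO library. Those counts cover the whole gene, including exons that the deletion may leave in place. Markers of neural stem cells and radial glia summed to between 9575 and 10956 CPM in KO libraries and between 9628 and 11103 CPM in WT libraries, and of the 12, all tested, 1 rose and 1 fell in the fit with the library number as a block, which called 3.33% of all tested genes higher and 6.46% lower. The libraries numbered 1 stood apart in both genotypes: with genotype as a covariate, 57.6% of all tested genes were called between number 1 and numbers 2 and 3. KO 2 and KO 3 differed least among same-genotype pairs, with a median chi-square per gene of 1.02, against 5.25 for WT 2 and WT 3 and 0.455 from counting alone. Each genotype comparison is therefore given without a block, with the library number as a block (the blocked fit) and, where it bears on a gene, in numbers 2 and 3 alone. A gene is called at adjusted p under 0.05 (quasi-likelihood test of edgeR, adjusted after Benjamini and Hochberg over all tested genes), and "rose" and "fell" are used of genes called in the blocked fit. Log2 fold changes are KO over WT and are given ± SE.

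Levels were compared between collagens as CPM per kilobase of exon, counting the exons of all transcripts of a gene once. Col4a5, a chain of basement-membrane type IV collagen, had the highest mean level in both genotypes, at 27.0 ± 11.7 CPM per kilobase in KO and 32.3 ± 13.8 in WT (SD, n = 3). It was followed in WT by Col5a2 (13.3 ± 3.14 in KO and 24.0 ± 6.98 in WT) and Col5a3 (13.3 ± 6.09 and 19.8 ± 10.7), both chains of fibrillar type V collagen. Col9a3, a chain of the FACIT collagen type IX, was at 17.4 ± 4.67 CPM per kilobase in KO and 17.4 ± 6.54 in WT. These SDs overlap from gene to gene, so the order among the leading genes is not resolved. With the longest transcript as the length, Col5a2 came first in WT and Col4a5 next. Further down were Col5a1 (8.51 in KO and 12 in WT), Col16a1 (9.37 and 11.7), Col4a6 (7.23 and 10.8), Col18a1 (4.32 and 9.08) and Col11a1 (4.81 and 8.49). The type I chains, abundant in connective tissue, were lower. Col1a1 was 26th of the 44 in KO and 24th in WT, at 0.104 ± 0.017 CPM per kilobase in KO and 0.157 ± 0.047 in WT. Col1a2 was 31st in both genotypes, at 0.0153 ± 0.00491 in KO and 0.0592 ± 0.025 in WT. With the longest transcript as the length, Col1a2 was 30th in KO and 26th in WT.

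**Figure D1:**
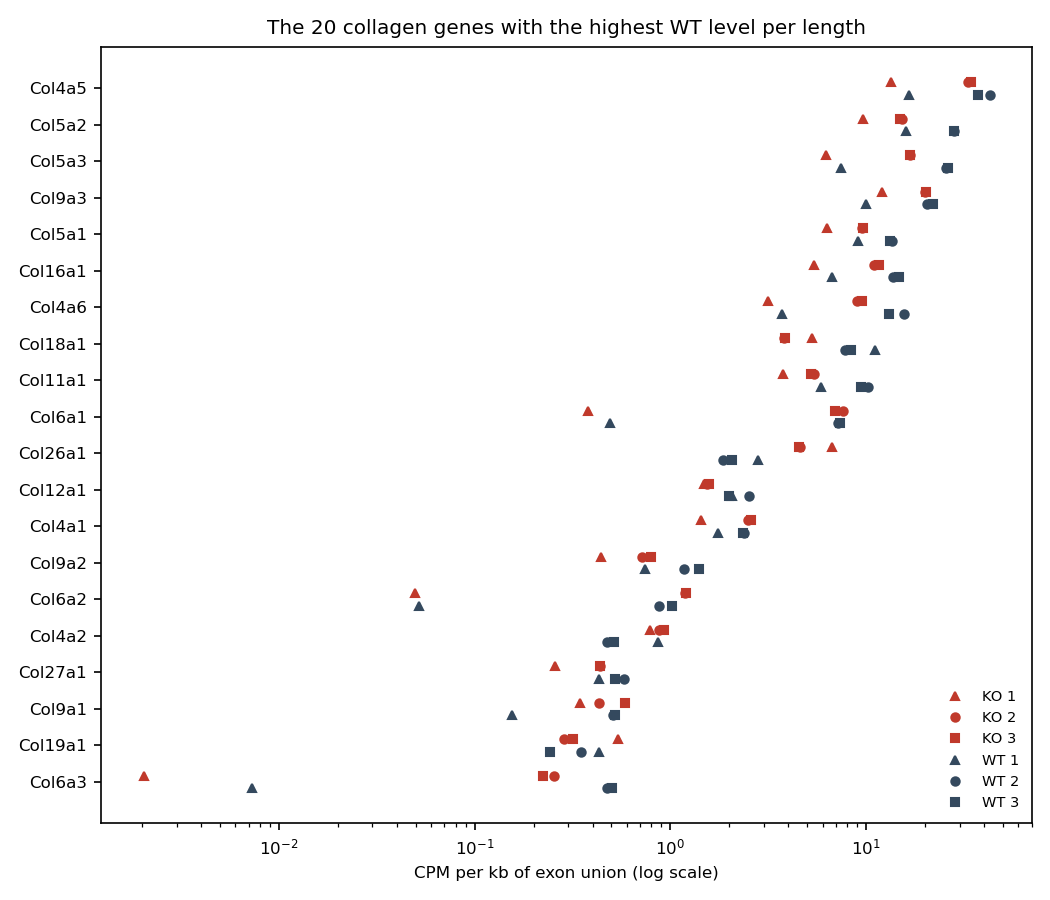
Levels of the 20 collagen genes with the highest WT mean per length, one point per library (x axis: CPM per kilobase of exon, log scale; red KO, dark WT; triangles, circles and squares are libraries 1, 2 and 3). Col4a5 leads in both genotypes, and the libraries numbered 1 lie far to the left for Col6a1, Col6a2 and Col6a3.

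Most collagen genes had lower values in KO cells than in WT cells of the same library number. Summed over all 44 genes, they made up 587, 1037 and 1049 CPM in KO 1, 2 and 3 and 755, 1478 and 1420 CPM in WT 1, 2 and 3. The KO library was the lower one at each number, while KO 2 and KO 3 lay above WT 1. Among the 32 tested genes, 24 had a negative log2 fold change, with a median of −0.38 without a block and −0.40 with it, against medians of 0.0053 and 0.0068 over all tested genes. In 18 of the 32 the KO library was below the WT library of the same number at all 3 numbers, and in 2 (Col26a1 and Col28a1) it was above at all 3. The share of all tested genes with these patterns was not counted, so these 2 counts have no background to stand against. All KO libraries were below all WT libraries in 6 of the 32 (Col11a1, Col5a2, Col1a2, Col18a1, Col12a1 and Col6a4) and above in 1 (Col26a1), where the share over all tested genes was 6.71% below and 4.49% above.

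How many collagens passed the test depended on the block. Without it none of the 32 was called by edgeR, with 7 at unadjusted p under 0.05 (5.81% of all tested genes), and 8 of 13683 genes (0.0585%) were called at all; DESeq2 without a block called Col18a1 and Col12a1 as lower and Col26a1 as higher, against 1.45% of genes lower and 0.468% higher. In the blocked fit 12 collagens fell, where 6.46% of all tested genes did, and 2 rose, where 3.33% did. DESeq2 with the block called 12 lower and 1 higher, against 5.47% and 3.8% of genes. The 12 in the edgeR fit were 5 fibrillar genes (Col1a2, Col5a1, Col5a2, Col5a3 and Col11a1), 2 type IV genes (Col4a5 and Col4a6), Col18a1, 3 FACIT genes (Col9a2, Col12a1 and Col16a1) and Col6a3. In numbers 2 and 3 alone, 8 of 31 collagens were called lower and 2 higher, against 3.57% and 1.82% of all genes. Number 1 alone as the block gave 13 lower and 1 higher (6.83% and 3.73% of all genes), and summing KO 2 and KO 3 in that fit gave 8 and 1 (3.8% and 1.13%). Leaving out both libraries of number 1, 2 or 3 in the blocked fit gave 10 lower collagens each time, against 4.93%, 5.36% and 6.48% of all genes, and 2, 1 and 2 higher ones, against 2.61%, 3.71% and 4.16%. Col18a1, Col26a1, Col1a2, Col11a1, Col5a1, Col5a2 and Col5a3 were called in all 8 other fits that used a block or left out number 1, and the other 7 lost the call in at least 1 of them.

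**Figure D2:**
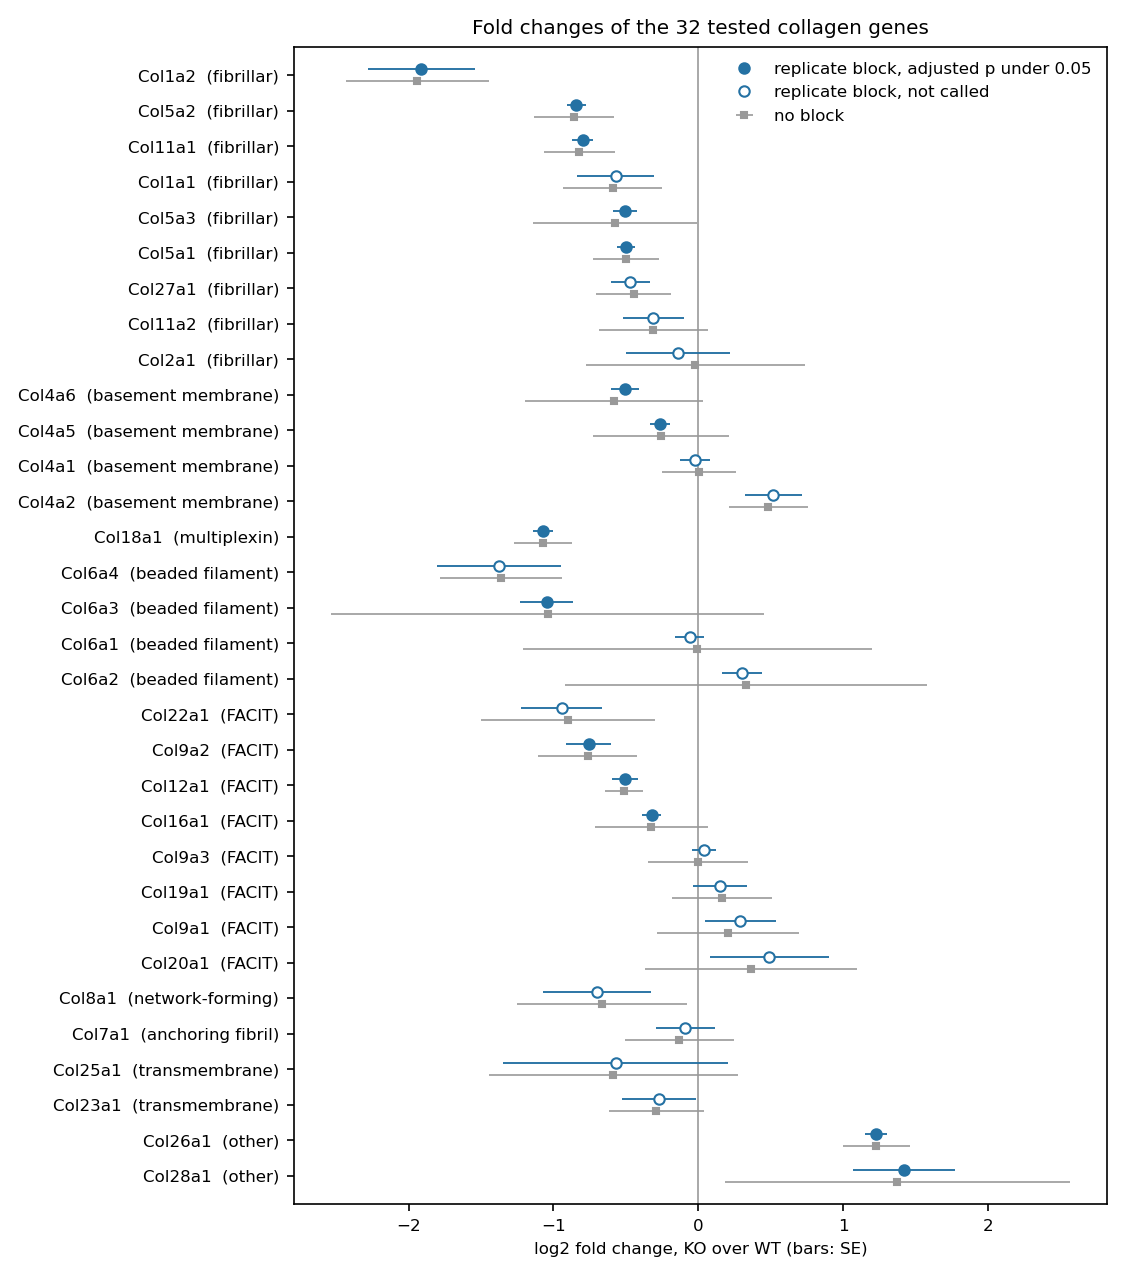
Log2 fold change of each of the 32 tested collagen genes, KO over WT, grouped by class (bars: SE; filled blue circles: called with the replicate block; open circles: not called with it; grey squares: fit without a block). The 9 fibrillar genes all lie left of 0, and Col26a1 and Col28a1 are the called genes on the right.

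The fibrillar class held the most collagens that fell. All 9 tested members had negative log2 fold changes in both fits (8 of 9 in numbers 2 and 3 alone, where Col2a1 was at 0.19), with a median of −0.58 without a block and −0.51 with it, and 5 of the 9 fell in the blocked fit. Together the 11 fibrillar genes gave 242, 421 and 415 CPM in KO 1, 2 and 3, against 364, 704 and 691 CPM in WT 1, 2 and 3. Most of that came from type V and type XI chains, which are known to start fibrils and limit their diameter.

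Col5a2 (chromosome 1, 45374321 to 45503282, minus strand) had 92.5, 147 and 142 CPM in KO 1, 2 and 3 and 153, 270 and 268 CPM in WT 1, 2 and 3. The KO libraries were all below the WT libraries, with KO 2 just under WT 1. Its log2 fold change was −0.84 ± 0.0645 with the block (adjusted p = 4.95e-05) and −0.86 ± 0.279 without it (adjusted p = 0.618). Col11a1 (chromosome 3, 114030540 to 114220718, plus strand), which encodes a type XI chain that can assemble with type V chains, had 48.0, 69.2 and 66.5 CPM in KO and 74.6, 130 and 120 CPM in WT. Here too the genotypes did not overlap, and the log2 fold change was −0.80 ± 0.0726 with the block (adjusted p = 0.000145) and −0.82 ± 0.247 without it (adjusted p = 0.545). Col5a1 (chromosome 2, 27886425 to 28039514, plus strand), the chain present in most type V molecules, had 53.4, 81.1 and 82.1 CPM in KO and 77.4, 116 and 113 CPM in WT. KO 2 and KO 3 lay above WT 1, and the change was −0.50 ± 0.0627 with the block (adjusted p = 0.000869) and −0.50 ± 0.229 without it (adjusted p = 0.951). Col5a3 (chromosome 9, 20770050 to 20815067, minus strand), a less widely used type V chain, had 42.6, 114 and 114 CPM in KO and 50.8, 175 and 179 CPM in WT. Its difference between number 1 and the other numbers exceeded that between genotypes, and the change was −0.51 ± 0.0826 with the block (adjusted p = 0.00393), −0.58 ± 0.567 without it (adjusted p = 0.999) and −0.63 in numbers 2 and 3 alone (adjusted p = 0.00533). Per length, Col5a2 stood at 1.53, 1.6 and 1.54 times Col5a1 in KO 1, 2 and 3 and at 1.75, 2.07 and 2.11 times in WT 1, 2 and 3, lower in every KO library.

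Type I collagen, the main fibrillar collagen of fibroblasts, was rare. Col1a2 (chromosome 6, 4504814 to 4541544, plus strand) had 5, 9 and 8 reads counted in KO 1, 2 and 3 and 18, 33 and 47 in WT 1, 2 and 3, with no overlap. The log2 fold change was −1.91 ± 0.369 with the block (adjusted p = 0.00949) and −1.94 ± 0.494 without it (adjusted p = 0.376). Its partner Col1a1 had 23, 33 and 24 counts in KO and 31, 48 and 58 in WT, and it was not called (−0.57 ± 0.267 with the block, adjusted p = 0.232). Per length, Col1a2 was at 0.115, 0.144 and 0.176 of Col1a1 in the KO libraries and at 0.307, 0.363 and 0.428 in the WT libraries. These ratios depend on the length used. With the longest transcript they were 0.241, 0.302 and 0.370 in KO and 0.644, 0.762 and 0.899 in WT, still lower in every KO library. Col3a1, whose product is a known ligand of the receptor Adgrg1 in the mouse cortex, had 4, 4 and 7 counts in KO and 3, 13 and 2 in WT, too few to test. The other fibrillar genes were not called in the blocked fit: Col27a1 was at 4.89 ± 1.35 CPM in KO and 6.66 ± 0.948 CPM in WT (adjusted p = 0.058; 0.0486, and so called lower, with number 1 as the block), while Col11a2 and the cartilage collagen gene Col2a1 were under 2 CPM on average in both genotypes.

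**Figure D3:**
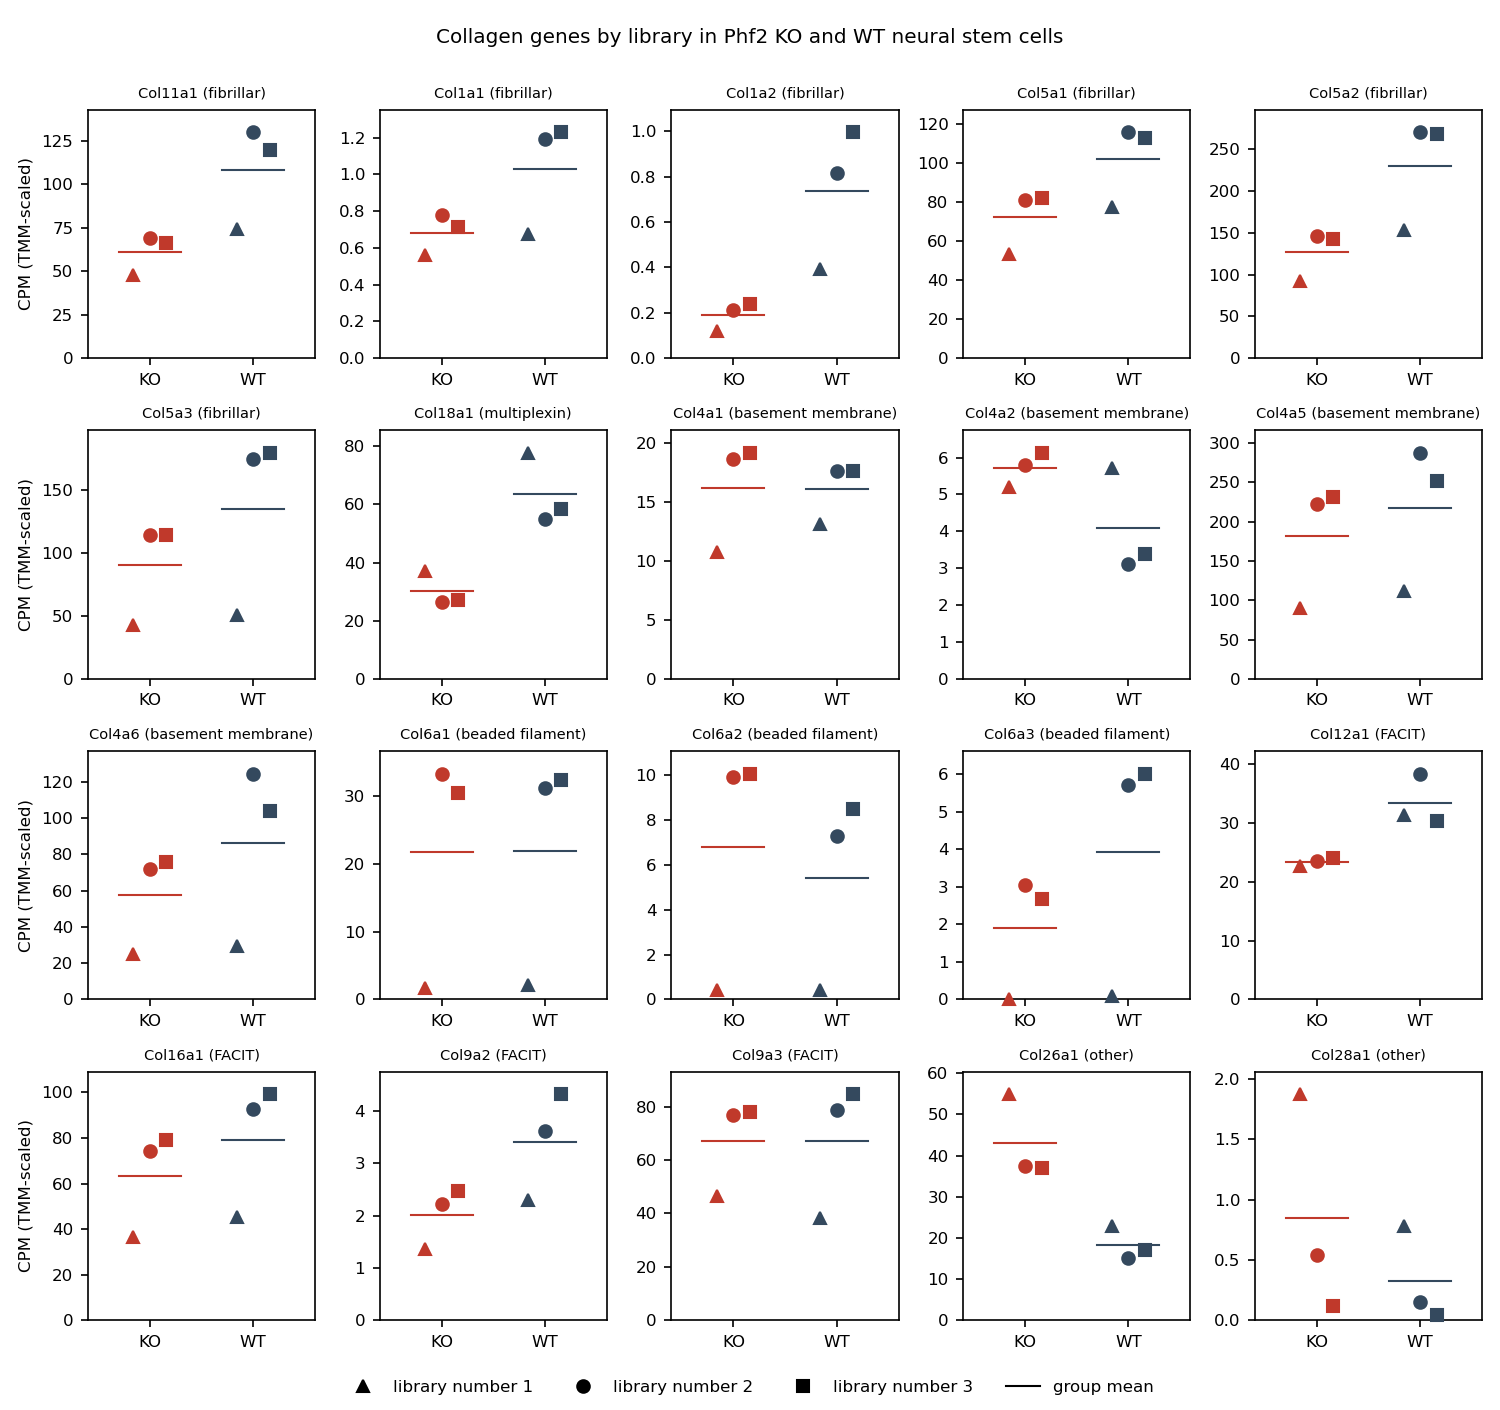
CPM of 20 collagen genes in each library (y axis: TMM-scaled CPM from 0; red KO left, dark WT right; triangles, circles and squares are libraries 1, 2 and 3; lines are group means of n = 3). The KO points of Col5a2, Col11a1, Col1a2, Col18a1 and Col12a1 all lie below the WT points, those of Col26a1 lie above, and the triangles of Col6a1, Col6a2 and Col6a3 lie near 0 in both genotypes.

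The sequences just before the start of 3 of the fibrillar genes that fell, and of the distal start of Col18a1, which fell as well, are shown because these genes moved in the same direction. Each is the 250 bases before the RefSeq start on GRCm38.p6, read 5′ to 3′ on the gene's strand. Capitals mark GC boxes (GGGCGG or, on the other strand, CCGCCC) and CCAAT boxes (CCAAT or ATTGG). The windows are Col5a1 at chr2:27886175-27886424 on the plus strand, Col5a3 at chr9:20815068-20815317 on the minus strand, Col11a1 at chr3:114030290-114030539 on the plus strand and Col18a1 at chr10:77166531-77166780 on the minus strand.
Col5a1: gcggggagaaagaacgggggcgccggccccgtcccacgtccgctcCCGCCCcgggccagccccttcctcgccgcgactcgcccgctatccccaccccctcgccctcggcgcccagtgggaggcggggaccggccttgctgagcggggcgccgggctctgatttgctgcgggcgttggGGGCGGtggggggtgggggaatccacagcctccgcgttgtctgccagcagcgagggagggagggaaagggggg
Col5a3: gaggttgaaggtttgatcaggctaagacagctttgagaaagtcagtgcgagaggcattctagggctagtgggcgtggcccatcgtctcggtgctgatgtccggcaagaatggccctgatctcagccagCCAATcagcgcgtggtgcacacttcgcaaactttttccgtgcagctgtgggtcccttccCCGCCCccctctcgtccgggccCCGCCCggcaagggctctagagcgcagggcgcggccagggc
Col11a1: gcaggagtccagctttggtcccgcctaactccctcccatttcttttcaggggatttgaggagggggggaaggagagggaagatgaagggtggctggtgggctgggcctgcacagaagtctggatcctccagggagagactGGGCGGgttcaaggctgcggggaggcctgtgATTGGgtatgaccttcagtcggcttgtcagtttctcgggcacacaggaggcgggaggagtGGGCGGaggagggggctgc
Col18a1, distal start: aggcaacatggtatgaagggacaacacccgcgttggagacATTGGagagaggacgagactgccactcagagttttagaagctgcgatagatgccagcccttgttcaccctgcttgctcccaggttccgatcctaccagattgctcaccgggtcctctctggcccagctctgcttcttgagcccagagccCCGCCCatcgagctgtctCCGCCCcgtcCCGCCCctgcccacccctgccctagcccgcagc
Col5a1, Col5a3 and Col11a1 each held 2 GC boxes and Col18a1 held 3, and a CCAAT box was found once in each window but that of Col5a1. Windows of other collagens that fell, not printed, varied. Col6a3 and the proximal start of Col18a1 held neither box, and Col4a6 held 1 GC box and no CCAAT box. Col9a2, like Col5a1, held 2 GC boxes and no CCAAT box. Col1a2 held 2 GC boxes, Col4a5 and Col16a1 held 1, and each of these 3 held 1 CCAAT box. RefSeq windows matched 35 of the collagen genes, with 38 windows in all. A GC box was in 22 of these (57.9%), against 32.7% of all 32851 windows of that length. The CCAAT box was in 13 of the 38 (34.2%), against 33.8% of all windows, and TATAAA or its complement TTTATA was in 5 (13.2%), against 12.4%. The collagen windows had a median of 59.0% G and C, against 52.4% over all windows, and G and C content moves with the GC box count. These matches describe letters, not factor binding.

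Col18a1 and Col26a1 had the lowest p-values of the tested collagens in the blocked fit, in opposite directions. Col18a1 (chromosome 10, 77052178 to 77166548, minus strand) encodes a basement-membrane proteoglycan from which the fragment endostatin is cut. It had 37.2, 26.6 and 27.1 CPM in KO 1, 2 and 3, against 77.7, 55.0 and 58.5 CPM in WT 1, 2 and 3. Every KO library was well below every WT library, and number 1 was the highest in both genotypes. Its log2 fold change at the 3 numbers was −1.06, −1.05 and −1.11. Over all libraries the log2 fold change of Col18a1 was −1.07 ± 0.0686 with the block (adjusted p = 1.69e-05) and −1.07 ± 0.199 without it (adjusted p = 0.192). The other multiplexin gene, Col15a1, had at most 5 counts in any library. Col26a1 (chromosome 5, 136741759 to 136883209, minus strand), whose product carries an EMI domain and was described in mouse testis and ovary, had 54.9, 37.5 and 37.0 CPM in KO, against 23, 15.2 and 16.9 CPM in WT. All KO libraries lay above all WT libraries, again with number 1 highest in each genotype. The log2 fold change was 1.23 ± 0.0767 with the block (adjusted p = 1.68e-05) and 1.23 ± 0.231 without it (adjusted p = 0.194), and it was 1.26, 1.30 and 1.13 at numbers 1, 2 and 3. Per length, Col26a1 was the 8th of the 44 collagens in KO, at 5.28 ± 1.25 CPM per kilobase, and the 11th in WT, at 2.25 ± 0.497. With the longest transcript as the length, Col26a1 was 4th in KO, at 15.5 CPM per kilobase, and 10th in WT, at 6.61.

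The other collagen that rose was Col28a1 (chromosome 6, 7997808 to 8192617, minus strand), a type known around Schwann cells in mouse peripheral nerve. It was scarce, with 77, 23 and 4 counts in KO 1, 2 and 3 and 36, 6 and 2 in WT 1, 2 and 3. The KO library was higher at each number, the genotypes overlapped, and the libraries numbered 1 held most of the counts. The log2 fold change was 1.42 ± 0.354 with the block (adjusted p = 0.0325) and 1.38 ± 1.19 without it (adjusted p = 0.999). With the block kept and both libraries numbered 2 left out, it was 1.28 with adjusted p = 0.0872. Without the libraries numbered 1, Col28a1 had too few counts to test. With every library used, it was not called with number 1 as the block (adjusted p = 0.0991) or in DESeq2 with the block (adjusted p = 0.106). Summing KO 2 and KO 3 with number 1 as the block also lost the call (adjusted p = 0.0831). Without a block, leaving out KO 1 gave a log2 fold change of 0.06 and leaving out WT 1 gave 3.18.

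Of the 4 tested type IV genes, 2 fell in the blocked fit and none rose. The alpha5 and alpha6 chains, which lie head to head on the X chromosome (Col4a5 at 141475385 to 141689234, plus strand; Col4a6 at 141165403 to 141474076, minus strand) and assemble with each other in some basement membranes, were the 2 that fell. Col4a6 had 25.2, 71.9 and 75.7 CPM in KO 1, 2 and 3, against 29.6, 125 and 104 CPM in WT 1, 2 and 3. The log2 fold change of Col4a6 was −0.50 ± 0.0967 (adjusted p = 0.00923), and it was −0.53 with adjusted p = 0.0509 when the libraries numbered 3 were left out. Col4a5 had 90.4, 223 and 231 CPM in KO, against 111, 287 and 252 CPM in WT, each KO library below its WT counterpart. Its change of −0.26 ± 0.0676 (adjusted p = 0.0369) was the smallest of the 14 called, and it lost the call without number 1 (adjusted p = 0.204) or without number 2 (adjusted p = 0.247), and with KO 2 and KO 3 summed (adjusted p = 0.136). Without a block, neither gene was called (adjusted p = 0.999 for each).

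The alpha1 and alpha2 chains, which form the main network of nearly all basement membranes, were not called in the blocked fit. Col4a1 (chromosome 8, 11198423 to 11312826, minus strand) had 10.8, 18.6 and 19.2 CPM in KO and 13.1, 17.7 and 17.6 CPM in WT, with a log2 fold change of −0.02 ± 0.103 (adjusted p = 0.918). Col4a2 (chromosome 8, 11312805 to 11449287, plus strand) had 5.21, 5.80 and 6.12 CPM in KO, against 5.72, 3.12 and 3.39 CPM in WT. Thus KO exceeded WT at numbers 2 and 3 but not at number 1, and the change was 0.52 ± 0.198 over all libraries (adjusted p = 0.141) and 0.87 in numbers 2 and 3 alone (adjusted p = 0.0231). Per length, Col4a2 was at 0.546, 0.351 and 0.360 of Col4a1 in KO 1, 2 and 3 and at 0.491, 0.2 and 0.217 in WT 1, 2 and 3. The annotated ends of these genes overlap by 22 bases on opposite strands, where unstranded reads could not be told apart. Col4a3 and Col4a4, best known from kidney, had at most 20 counts and were not tested.

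Among the tested collagens, Col6a1, Col6a2 and Col6a3 of type VI differed most between library numbers. Col6a1 (chromosome 10, 76708792 to 76726168, minus strand), needed in every classical type VI molecule together with Col6a2 and another chain, had 1.65, 33.4 and 30.5 CPM in KO 1, 2 and 3 and 2.15, 31.3 and 32.4 CPM in WT 1, 2 and 3. Col6a2 had 0.414, 9.88 and 10.0 CPM in KO and 0.435, 7.26 and 8.48 CPM in WT. Both genes were low at number 1 in both genotypes, their log2 differences between number 1 and numbers 2 and 3 were −4.06 ± 0.121 and −4.37 ± 0.182, and neither was called for genotype (adjusted p = 0.773 and 0.223 with the block). Col6a3 (chromosome 1, 90765923 to 90843971, minus strand) had 1, 129 and 90 counts in KO and 4, 230 and 284 in WT. It differed by −6.21 ± 0.288 between number 1 and numbers 2 and 3, and it fell in the blocked fit by 1.05 ± 0.183 on the log2 scale (adjusted p = 0.00571). That change was −1.03 in numbers 2 and 3 alone (adjusted p = 0.0156), and it lost the call when the libraries numbered 3 were left out (adjusted p = 0.0618). Per length, Col6a3 was at 0.0334 and 0.0321 of Col6a1 in KO 2 and 3 and at 0.0668 and 0.0681 in WT 2 and 3. Col6a4 had 7, 6 and 11 counts in KO and 22, 26 and 24 in WT. The genotypes did not overlap, but Col6a4 was not called (−1.38 ± 0.428 with the block, adjusted p = 0.0747).

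Across the family, 21 of the 32 tested collagens were lower and 5 were higher in the libraries numbered 1 than in numbers 2 and 3, against 29.4% lower and 28.2% higher over all tested genes. The median log2 difference over the 32 was −0.75. The 5 higher ones were Col26a1 (0.54), Col18a1 (0.46), Col28a1 (2.63), Col22a1 (1.30) and Col19a1 (0.69). Of the 9 fibrillar genes, 8 were called lower at number 1, from −1.84 for Col2a1 to −0.53 for Col27a1. The labels name nothing that sets number 1 apart.

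**Figure D4:**
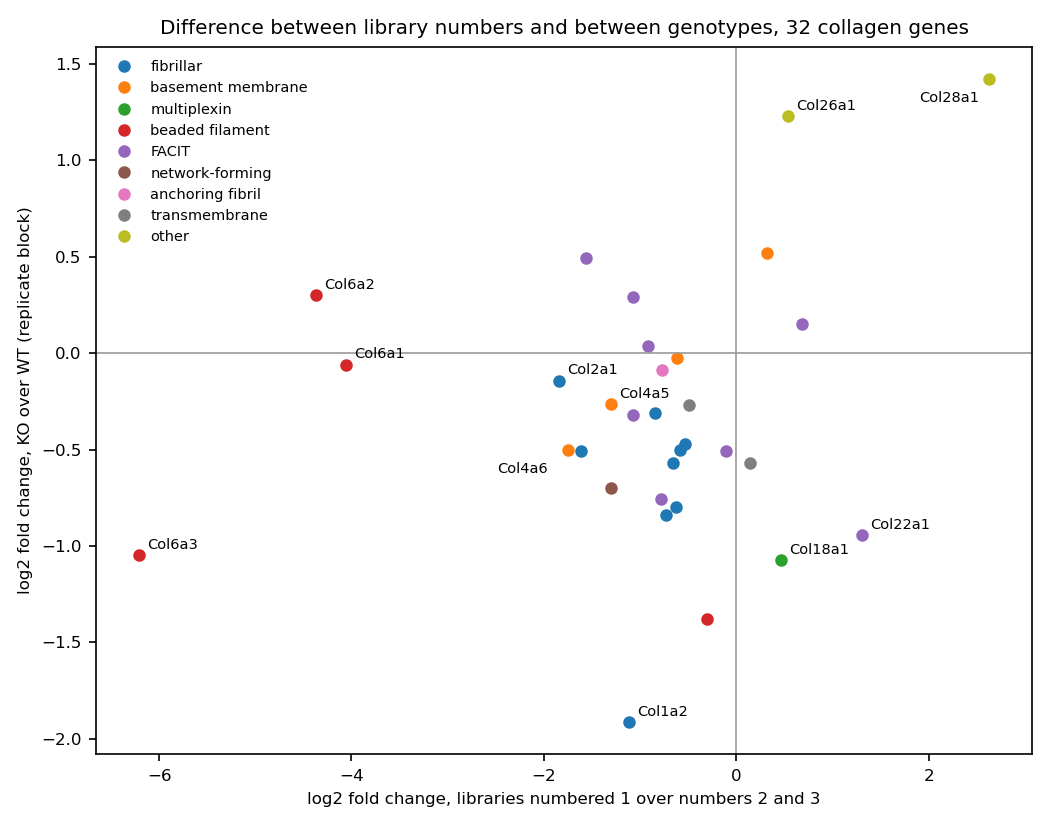
Log2 difference of each of the 32 tested collagen genes between libraries numbered 1 and those numbered 2 and 3 (x axis, fit with genotype) against the log2 fold change KO over WT (y axis, fit with the replicate block), coloured by class. Col6a1, Col6a2 and Col6a3 lie farthest left, while Col18a1 and Col1a2 have larger genotype than number effects.

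Among the FACIT genes, 3 of the 8 tested fell in the blocked fit and none rose, with a median log2 fold change of −0.14. Col12a1 (chromosome 9, 79598991 to 79718831, minus strand), whose product binds type I fibrils, had 22.6, 23.5 and 24.0 CPM in KO 1, 2 and 3, against 31.3, 38.4 and 30.2 CPM in WT 1, 2 and 3. Its KO libraries were close together and all below WT, and numbers 1, 2 and 3 showed no shared step. The log2 fold change of Col12a1 was −0.51 ± 0.0880 with the block (adjusted p = 0.00571) and −0.51 ± 0.130 without it (adjusted p = 0.371), and it lost the call in numbers 2 and 3 fitted alone without a block (adjusted p = 0.0768). Col16a1 (chromosome 4, 130047840 to 130099283, plus strand), a fibril-associated chain, had 36.6, 74.2 and 78.9 CPM in KO, against 45.4, 92.9 and 99.2 CPM in WT. Each KO library was lower at its number, by −0.31, −0.32 and −0.33 on the log2 scale, and the call in the blocked fit (−0.32 ± 0.0632, adjusted p = 0.0104) was lost without number 1 (adjusted p = 0.0671) and without number 2 (adjusted p = 0.0535).

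The type IX chains, which decorate type II fibrils in cartilage, did not move together. Col9a2 (chromosome 4, 121039385 to 121055322, plus strand) had 1.36, 2.22 and 2.47 CPM in KO, against 2.3, 3.62 and 4.32 CPM in WT, and it fell in the blocked fit by 0.76 ± 0.158 on the log2 scale (adjusted p = 0.0141; 0.0590 without number 3). Col9a3 (chromosome 2, 180597790 to 180622189, plus strand) had 46.3, 76.8 and 78.1 CPM in KO and 38.4, 78.6 and 84.7 CPM in WT, and it was not called (0.04 ± 0.0827 with the block, adjusted p = 0.833). Its exons share 234 bases with Tcfl5 on the opposite strand, so unstranded counts may mix the 2 genes there. Per length, Col9a3 was at 27.3, 27.8 and 25.4 times Col9a2 in KO libraries and at 13.4, 17.5 and 15.7 times in WT libraries. Col9a1 was at 2.31 ± 0.619 CPM in KO and 2.0 ± 1.05 CPM in WT (adjusted p = 0.529), and Col22a1, known from muscle and tendon junctions, had 40, 17 and 9 counts in KO and 75, 35 and 28 in WT (adjusted p = 0.0648). Col19a1 and Col20a1 were not called either (adjusted p = 0.687 and 0.522).

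The remaining tested collagens were not called in the blocked fit. The anchoring-fibril gene Col7a1 was at 2.07 ± 0.445 CPM in KO and 2.26 ± 0.972 CPM in WT (adjusted p = 0.840), and it shares 36 exon bases with Mir711. Col8a1, of the network-forming class, and the transmembrane collagen genes Col23a1 and Col25a1 had adjusted p = 0.295, 0.582 and 0.715, with means of at most 1.34 CPM. The 12 genes with too few counts were Col3a1, Col4a3, Col4a4, Col6a5, Col6a6, Col8a2, Col10a1, Col13a1, Col14a1, Col15a1, Col17a1 and Col24a1, none with more than 20 counts in any library.

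Genes that build, export and bind collagen were followed in 5 lists, and none of their members was called without a block. Their counts in the blocked fit stand against 6.46% of all tested genes that fell and 3.33% that rose. The lists are short, and whether their shares differ from that background was not tested. Of 20 genes for folding and hydroxylation of the chains, 3 fell in the blocked fit and none rose, with a median log2 fold change of −0.11. Fkbp10, a prolyl isomerase that acts as a collagen chaperone, was at 33.9 ± 11.4 CPM in KO and 55.3 ± 19.9 CPM in WT (−0.69 ± 0.0730, adjusted p = 0.000334). The prolyl 3-hydroxylase gene P3h2 was at 12.4 ± 0.709 CPM in KO and 18.3 ± 2.61 CPM in WT (−0.56 ± 0.105, adjusted p = 0.00876). The prolyl 4-hydroxylase subunit gene P4ha3 was at 2.24 ± 1.12 CPM in KO and 4.01 ± 2.58 CPM in WT (−0.76 ± 0.183, adjusted p = 0.0274). None of 9 tested genes for secretion in large vesicles was called, and the most abundant, the small GTPase gene Sar1a, was at 166 ± 10.8 CPM in KO and 173 ± 8.08 CPM in WT (adjusted p = 0.6).

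Of 10 tested genes for propeptide removal and cross-linking, 1 fell and none rose. Adamts3, a propeptide-cleaving protease gene named after its values were seen, was at 0.85 ± 0.269 with the block (adjusted p = 0.0922) but was called higher in numbers 2 and 3 alone (1.32 ± 0.128, adjusted p = 0.0055). The gene that fell was Loxl1, a lysyl oxidase-like enzyme gene, with 1.44, 4.67 and 3.98 CPM in KO 1, 2 and 3, against 3.70, 10.6 and 11.5 CPM in WT 1, 2 and 3, lower at each number though KO 2 and KO 3 lay above WT 1. Its log2 fold change was −1.36 ± 0.132 (adjusted p = 0.000208). Of 11 tested collagen receptors, 2 fell and none rose: Ddr2, a receptor tyrosine kinase for fibrillar collagens, was at 7.62 ± 2.26 CPM in KO and 13.8 ± 2.22 CPM in WT (adjusted p = 0.00313), and the integrin gene Itga1 was at 7.88 ± 1.24 CPM in KO and 11.9 ± 1.95 CPM in WT (adjusted p = 0.0128). Adgrg1, named after its values were seen as the receptor for type III collagen, was at 429 ± 6.40 CPM in KO and 448 ± 24.3 CPM in WT and was not called (adjusted p = 0.631). Of 6 tested fibril-binding genes, 2 fell and none rose: fibronectin (Fn1) was at 56.6 ± 15.5 CPM in KO and 99.4 ± 40.7 CPM in WT (−0.76 ± 0.0944, adjusted p = 0.000834), and Sparc, which binds secreted collagen, was at 652 ± 308 CPM in KO and 845 ± 383 CPM in WT (−0.39 ± 0.0684, adjusted p = 0.00587).

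Markers of other cell types that make collagen were summed in the same libraries, and their calls in the blocked fit likewise stand against 3.33% of all tested genes higher and 6.46% lower. Fibroblast markers gave 200 to 218 CPM in KO and 170 to 200 CPM in WT, mostly from Prrx1. Prrx1 was at 157 ± 4.0 CPM in KO and 147 ± 8.82 CPM in WT. Of the 14 markers, 8 stayed under 10 counts, and 4 of these (Dcn, Dpt, Foxd1 and Aldh1a2) were at 0 in every library. Of 4 tested, 2 rose and none fell. The 2 were Twist1 and Foxc1, named after their values were seen. Twist1 had 28, 32 and 16 counts in KO 1, 2 and 3, against 3, 0 and 0 in WT 1, 2 and 3 (4.65 ± 0.705, adjusted p = 0.00271). Foxc1 was at 47.8 ± 13.9 CPM in KO and 36.7 ± 7.12 CPM in WT (0.36 ± 0.0779, adjusted p = 0.0167). Pericyte and smooth muscle markers gave 9.68, 27.1 and 25 CPM in KO 1, 2 and 3, against 8.31, 45.4 and 48.8 CPM in WT 1, 2 and 3. Their sum, mostly Acta2 and Tagln, was low at number 1 and, at numbers 2 and 3, lower in KO. Of the 5 tested markers of this list, Tagln fell (−1.0 ± 0.140, adjusted p = 0.00172). Acta2, the most abundant, was at 14.0 ± 5.85 CPM in KO and 21.5 ± 14.0 CPM in WT (adjusted p = 0.304). In numbers 2 and 3 alone Acta2 was called lower as well (−0.77 ± 0.0858, adjusted p = 0.00791). Myh11 and Abcc9, named after their values were seen, went the other way. Myh11 had 0.292, 0.330 and 0.357 CPM in KO 1, 2 and 3, against 0.087, 0.248 and 0.191 CPM in WT 1, 2 and 3. It was not called (adjusted p = 0.280). Abcc9, too low to test, was higher in KO at numbers 2 and 3. None of the 10 pericyte and smooth muscle markers was at 0 in every library, but 4 (Kcnj8, Abcc9, Vtn and Anpep) stayed under 10 counts. The part of these markers' cells in the collagen differences was not tested. Endothelial markers gave 1.91 to 2.82 CPM in KO and 2.16 to 2.91 CPM in WT, with Cdh5 at 0 in every library and Kdr the most abundant; none of 4 tested was called. Choroid plexus markers gave at most 0.922 CPM in KO and 0.636 CPM in WT, with Folr1 at 0 and Aqp1 the most abundant. Microglial markers gave 0.731 to 1.19 CPM in KO and 0.421 to 0.804 CPM in WT, mostly P2ry12, with Aif1, C1qa and Trem2 at 0.

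Markers of neural cell types were also called in the blocked fit, against the same shares over all tested genes. Astrocyte markers summed to 218 to 255 CPM in KO and 353 to 522 CPM in WT, with no overlap, and 4 of the 6 fell, among them Gja1, a gap-junction gene and the most abundant over the 6 libraries. Gja1 was at 118 ± 32 CPM in KO and 140 ± 44.1 CPM in WT (−0.23 ± 0.0618, adjusted p = 0.0431; 0.150 in numbers 2 and 3 alone). The folate enzyme gene Aldh1l1 and the intermediate filament gene Gfap, named after their values were seen, fell as well. They changed by −1.97 ± 0.123 (adjusted p = 4.75e-05) and −1.12 ± 0.126 (adjusted p = 0.000798), and both were also called in numbers 2 and 3 alone. Gfap also differed by −4.52 ± 0.161 between number 1 and numbers 2 and 3. Aqp4 and S100b, likewise named after their values were seen, were not called. Aqp4 was at −0.0033 ± 0.113 (adjusted p = 0.990) and S100b at −0.21 ± 0.141 (adjusted p = 0.425). Of 8 oligodendrocyte-lineage markers, 1 rose and 2 fell, with sums of 3421 to 3673 CPM in KO and 3515 to 4269 CPM in WT and Olig1 the most abundant. Nkx2-2, 1 of the 2 that fell and named after its values were seen, was also called without a block. It had 31.4, 28.0 and 29.0 CPM in KO 1, 2 and 3, against 68.4, 67.4 and 71.7 CPM in WT 1, 2 and 3. Its log2 fold change was −1.23 ± 0.0721 with the block (adjusted p = 1.39e-05) and −1.23 ± 0.0975 without it (adjusted p = 0.0316). Neuronal markers summed to 862 to 1086 CPM in KO and 807 to 1122 CPM in WT, 3 of 8 tested fell, and Map2 was the most abundant. No list of these 3 had a marker at 0 in every library, and what part these cells have in the collagen counts was not tested. In bulk RNA, fewer cells of a type and less collagen RNA per cell cannot be told apart.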

How the data were processed

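The data are 3 KO and 3 WT RNA-seq libraries of mouse neural stem cells. The deposited values are raw counts, whole numbers per gene symbol, and they entered the fits unchanged; how RSEM estimates became whole is not stated. The submitters' processing notes name FastQC, cutadapt, Trim Galore, Bowtie2, RSEM and the build mm10, with no versions and no strand setting. Each column name matched 1 sample title.

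edgeR 4.0.16 in R 4.3.3 was fitted to the whole table: filterByExpr left 13683 of 24503 genes, libraries were scaled by TMM, and glmQLFTest was run two-sided with Benjamini-Hochberg adjustment over all tested genes, called at 0.05. The model had genotype alone. Same-numbered libraries deviated together from their group means (correlation across genes 0.854, 0.604 and 0.580 for numbers 1, 2 and 3, over the limit of 0.1), so the pairing comes from these correlations and a fit with the library number as a block is given beside it. Across numbers 2 and 3 the correlations were 0.633 and 0.578, so the numbers mainly separate 1 from 2 and 3. The fits were tested on simulated data, with counts drawn independently for each library and the spread taken from the blocked fit. Such data hold no technical replicates, so the test does not bear on whether KO 2 and KO 3 are separate cultures.

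Lengths and positions are from GENCODE vM21 (GRCm38, 1-based), promoter windows from RefSeq on GRCm38.p6.

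Values by library are given for collagens called in either fit and for the 10 with the highest mean CPM (15 genes). Added after their values were seen were 5 partner chains (Col1a1, Col4a1, Col4a2, Col6a1 and Col6a2) and the counts of Col3a1, Col6a4 and Col22a1. Adgrg1, Adamts3, Aldh1l1, Gfap, Aqp4, S100b, Twist1, Foxc1, Myh11, Abcc9 and Nkx2-2 were also added after their values were seen. Of each pathway list up to 3 called genes are named, and of each marker list the most abundant. The genes and lists were chosen with earlier results of these data known. Alternatives were DESeq2 1.42.0, other scalings and filters, and fits leaving out libraries, with numbers 2 and 3 alone or with KO 2 and KO 3 summed; leaving out both libraries of a number in the blocked fit was added after seeing the data.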

Additional observations from a re-analysis of the deposited data

How the results depend on the processing

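Counts of calls depended on the pairing. Higher and lower calls over all genes were 4 and 4 without a block, 456 and 884 with the replicate block, 510 and 935 with number 1 as the block, 251 and 492 in the fit of numbers 2 and 3, 158 and 530 with KO 2 and KO 3 summed and number 1 as the block, 0 and 0 with them summed and no block (495 genes at unadjusted p under 0.05), 64 and 198 with DESeq2, 520 and 748 with DESeq2 and the block, 2 higher with upper-quartile scaling, and 327 and 983 with upper-quartile scaling and the block. With the block and without number 1, 2 or 3 they were 359 and 678, 510 and 738, and 569 and 887. Collagen calls, higher and lower, were 0 and 0 without a block, 2 and 12 with the replicate block, 1 and 13 with number 1 as the block, 2 and 8 in the fit of numbers 2 and 3, 1 and 8 with KO 2 and KO 3 summed and the block, 1 and 2 with DESeq2, 1 and 12 with DESeq2 and the block, 2 and 13 with upper-quartile scaling and the block, and 2 and 10, 1 and 10, and 2 and 10 with the block and without number 1, 2 or 3. With 1 library left out and no block, edgeR called from 0 to 7 genes higher and from 0 to 14 lower (at least 499 at unadjusted p under 0.05) and no collagen. The collagen median kept its sign in every fit, from −0.54 without WT 1 to −0.21 without WT 2. RLE scaling and the filters on low counts left each count within 1.5 times that of the fit without a block. The cause of these differences was not tested.

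Of 415 log2 fold changes of the 20 collagens described by library, over 21 alternatives, 269 kept direction and call, 110 gained a call and 36 changed sign, in 5 genes. Col9a3 was at 0.0378 with the replicate block, 0.0368 with number 1 as the block, 0.0700 with KO 2 and KO 3 summed and the block, 0.0049 with DESeq2, 0.0473 with DESeq2 and the block, 0.0049 with RLE scaling, 0.0077 with upper-quartile scaling and the block, 0.0786 and 0.115 with the block and without number 2 or 3, and from −0.27 to 0.21 with 1 library left out. Col4a1 was at −0.0247 with the replicate block, −0.0246 with number 1 as the block, −0.0567 and −0.12 with KO 2 and KO 3 summed, with and without that block, −0.0168 with DESeq2 and the block, −0.0255 and −0.0547 with upper-quartile scaling, without and with the block, −0.0063 among genes of at least 50 mean counts, −0.0752 and −0.0984 with the block and without number 2 or 3, and from −0.13 to 0.23 with 1 library left out. Col6a1 was at 0.0068 in the fit of numbers 2 and 3, 0.00502 with the block and without number 1, and from −0.54 to 0.55 with 1 library left out. Col6a2 was at −0.0448 with KO 2 and KO 3 summed and no block, and from −0.21 to 0.89 with 1 library left out. Col4a5 ranged from −0.56 to 0.0673 with 1 library left out. With 1 library left out and no block, values also moved by over 1.5 times for Col5a3 (from −0.96 without WT 1 to −0.24 without KO 1), Col4a6 (−0.98 without WT 1 to −0.21 without WT 2), Col6a3 (−1.61 without WT 1 to −0.46 without KO 1), Col16a1 (−0.59 without WT 1 to −0.05 without KO 1), Col28a1 (3.18 without WT 1 to 0.06 without KO 1), Col5a1 (−0.32 without KO 1) and Col4a2 (0.82 without WT 1). Col27a1, not called with the replicate block, was called lower with number 1 as the block, with upper-quartile scaling and the block, and with the block and without number 3. Counting error limits the collagens with few reads, such as Col1a2 and Col28a1.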
